A study of Arabidopsis thaliana with 14 samples.

Results

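The chloroplast of Arabidopsis thaliana carries its own genome, and 106 of the 5861 circRNAs of the series were listed with a chloroplast parent gene other than the 8 left out by the selection rule, among which are psbA and rbcL. The 106 circRNAs were listed with 45 genes and had 1093 junction reads. They made up 11.7% of the 909 chloroplast circRNAs and 17.0% of the 6426 chloroplast junction reads. In the mixed sample, described below, they had 994 reads and the other chloroplast circRNAs had 1124. Outside it they had 99 and the others had 4209. The values outside it are headed as means, so the 17.0% pools unlike measures and describes neither set alone. No measured value entered the selection rule, which took the listed chromosome and gene identifier. The genes encode small photosystem subunits, the cytochrome b6f complex, ATP synthase, the NDH complex, ribosomal proteins, RNA polymerase, tRNAs and a few other proteins.

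Wild-type Columbia (Col-0) plants were grown at 23°C by day and 18°C by night with 16 h of light. Of the 13 separate samples, 4 were plants sampled whole (growth stage 1.14, 3.90, 6.50 or 8.00) and 5 were organs, namely siliques, flowers, leaves, stems and roots. The other 4 were taken at stage 3.90 without stress or under drought (300 mM mannitol), salt (200 mM NaCl) or heat (38°C). The mixed sample pooled RNA of 7 growth stages. Every sample was 1 library of RNA depleted of ribosomal and linear RNA, so no condition had a replicate and no test between conditions was made. In bulk RNA, fewer cells of a type and less RNA per cell cannot be told apart. The files used here gave a read count for the mixed sample only and, for circRNAs outside it, 1 whole number headed as a mean of junction reads. Both are called junction reads here, and read totals add them. Of the 1093 reads of the 106 circRNAs, 994 came from the mixed sample, so their read shares mostly describe that library. The mixed sample held 1217 circRNAs with 8987 reads and a median of 4 reads.

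A circRNA is a transcript whose 3′ end is joined to its own 5′ end, and a back-spliced junction read crosses that join. Chloroplast genes are transcribed in long units that hold many genes. These transcripts are then cut, trimmed at their ends and, for a minority of genes, spliced at group I or group II introns, which do not use the nuclear spliceosome. Transcription also runs beyond genes and on their opposite strand. Much of the chloroplast genome lies in a pair of identical copies facing in opposite directions, the inverted repeat, which carries the rRNA genes.

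The junctions that carry most reads are shown first. All are on the chloroplast of TAIR10 (Pt). In each, the lower-case letters are the last 15 bases of the circle, the capitals are its first 15 bases, and the sequence is read 5′ to 3′ on the listed strand. The 6 most-read circRNAs on the strand of psbJ ended on the same base and began at different ones:
FC4758, Pt:63455-63584, minus strand: gtctgattcgaggggGTATTTTCTTTTATG
FC4763, Pt:63455-63620, minus strand: gtctgattcgaggggGTACTGTAGCTGGTA
FC4767, Pt:63455-63611, minus strand: gtctgattcgaggggCTGGTATTCTTGTGA
FC4775, Pt:63455-63673, minus strand: gtctgattcgaggggGGAAGCGGGATAAAT
FC4780, Pt:63455-63668, minus strand: gtctgattcgaggggCGGGATAAATGGCTG
FC4794, Pt:63455-63640, minus strand: gtctgattcgaggggGATTCCTCTTTGGGT

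The most-read circRNAs of 6 other classes of gene had these junctions, given so that the ends can be compared between classes:
FC0110 of petD, Pt:76936-77090, plus strand: taaattatattttttGTATGAGACGACCCA
FC4813 of trnP, Pt:66345-66512, plus strand: acaggatttgaacccAGGGCATTCTTTAAC
FC0111 of rpoA, Pt:77916-78113, plus strand: ttttttttttcttagAATGTCTAATATCTT
FC4972 of atpF, Pt:12602-12768, plus strand: tggccagtgacccaaTTATAGTGCCACTGG
FC4755 of ndhD, Pt:116075-116251, minus strand: atcttgatgaaatggCCTATTCTTCTGTAT
FC4864 of clpP, Pt:71268-75969, plus strand: tatacctcaccggtgGTTTATGCTCTACCC

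The genome had AG just before the first base and GT just after the last base of the circle, on the listed strand, in 106 of the 106 junctions (100%, Wilson 95% interval 96.5–100%). The same held for 909 of 909 chloroplast junctions. These 2 pairs of letters are those the junction caller looks for, and the listed strand is the strand on which they are read. Whether the strand was also taken from the reads is not given in the sources used here. The 60 bases across each junction were found in a contiguous stretch of the genome with up to 3 differing bases for 0 of 106 circRNAs. The same held for 0 of the 803 other chloroplast circRNAs. Junctions were called from reads whose segments mapped in reverse order, so counts near 0 were largely set by the calling. Taking 3 counts as the limit that a count of 0 allows, 0 of 106 allows a share of up to 2.83%. The same limit is used for the other counts of 0. The closest match differed at 11 bases. Intervals and limits here cover counting error only. Those given for the AG and GT letters and for contiguous matches do not measure anything beyond the calling.

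Reads were spread very unevenly. A circRNA had 2 to 251 reads with a median of 4, and 23 of the 106 had only 2 reads. The 10 most-read circRNAs had 610 reads, 55.8% of the 1093, and 7 of these 10 were listed with psbJ. Of the 8 circRNAs with at least 20 reads, 7 were listed with psbJ and the other, FC0103, with psbK. Among the 7 is FC4783 with 34 reads, which spans 70505 bp on the opposite strand and has neither end in psbJ. By gene, 26 of the 45 genes had 1 circRNA, with 138 reads together, 9 had 2, and 10 had at least 3.

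**Figure D1:**
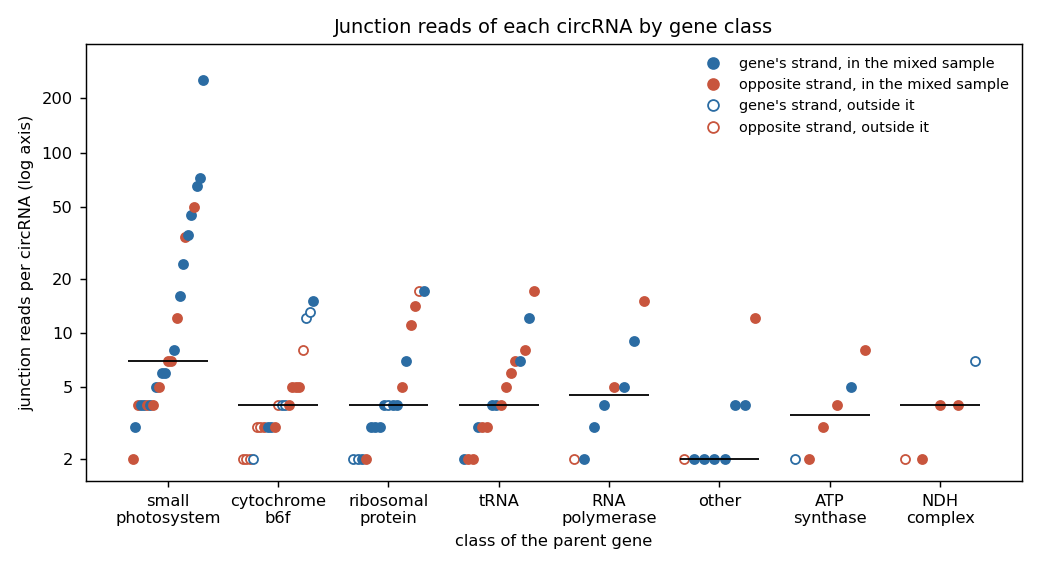
Junction reads of each of the 106 circRNAs (log axis) by the class of the parent gene; black lines are class medians, blue points are on the gene's strand and red on the opposite strand, and open points lie outside the mixed sample. The small photosystem subunit genes reach 251 reads and have a median of 7, while no circRNA of another class exceeds 17 reads.

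Small photosystem subunit genes had 25 circRNAs with 677 reads, 61.9% of all 1093, from 6 of 14 annotated genes. They were psbJ, psbK, psbI, psbZ, psbH and psaJ, all of which encode short membrane proteins of photosystem II or, for psaJ, photosystem I. Of the 25 circRNAs, 15 were on the strand of the gene and 10 on the opposite strand, and 0 of 25 lay wholly inside the gene. All 25 were in the mixed sample, but 12 more with 90 reads overlapped genes of this class outside it and were listed as intergenic. Without psbJ the class had 10 circRNAs with 107 reads.

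The gene psbJ, which encodes a small subunit of photosystem II, had 15 circRNAs with 570 reads, 52.2% of the 1093. It lies at Pt:63538-63660 on the minus strand and has no intron. Of the 15 circRNAs, 3 with 43 reads spanned more than 10000 bp. In the mixed sample FC4758 had 251 reads, 23.0% of all reads of the 106 circRNAs. FC4763 had 72 reads and FC4767 had 65. These 3 circles were 130, 166 and 157 bp long and held the last 47, 83 and 74 of the 123 coding bases. FC4775 had 45 reads and FC4780 had 35. Their spans were 219 and 214 bp, they began 13 and 8 bases before the start codon, and they held the whole coding part. FC4794, with 24 reads, held 103 coding bases. A further circRNA with the whole coding part, FC5414, had 4 reads.

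These 7 circRNAs of psbJ shared their 3′ end at Pt:63455, 83 bp past the last coding base, and had 496 reads together. Their 7 different 5′ ends were spread over 114 bp. The letters gtctgattcgagggg in the junctions above are that common end. FC5413, 72552 bp long with 4 reads, ended on the same base, which brought the circRNAs at this position to 8 and their reads to 500, or 45.7% of the reads of all 106. In the other direction, 2 circRNAs on the gene's strand, FC5120 with 6 reads and FC5416 with 4, shared a 3′ end inside the gene at Pt:63621. On the opposite strand 3 short circRNAs had 21 reads: FC4862 had 12, FC5202 had 5 and FC5415 had 4. The far end of each lay 70, 70 and 55 bp past the last coding base of psbJ, near the common end on the other strand. The 12 circRNAs of psbJ up to 10000 bp therefore had 506 reads on the gene's strand and 21 on the opposite one. All 15 circRNAs of psbJ were in the mixed sample. Outside it, 5 more with 28 reads overlapped psbJ but were listed as intergenic. Of these 5, only 1 with 4 reads was on the gene's strand.

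**Figure D2:**
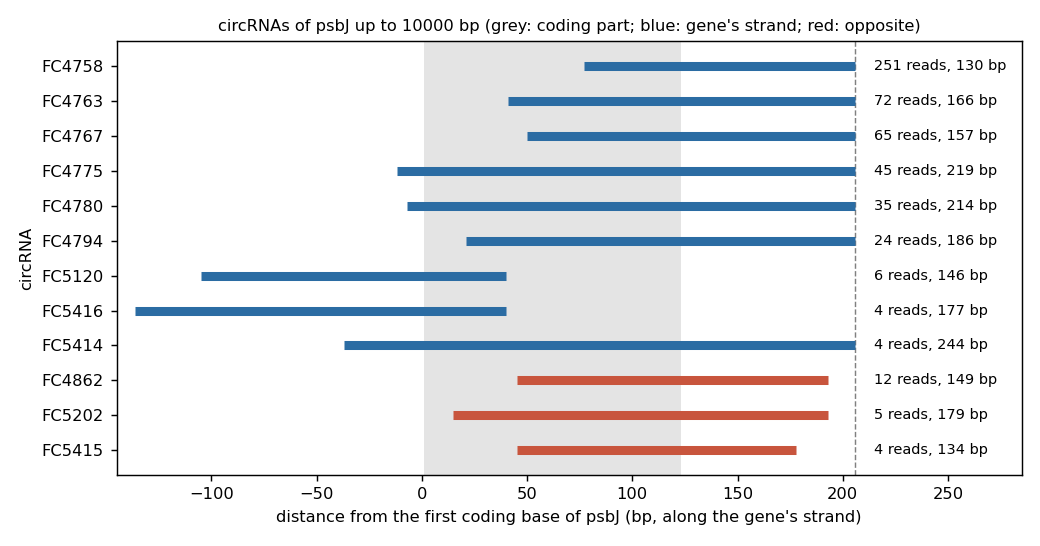
The 12 circRNAs of psbJ up to 10000 bp as bars from end to end, by distance in bp from the first coding base; the grey area is the coding part of 123 bp, the dashed line is 83 bp past its end, blue is the gene's strand and red the opposite strand. The 7 bars that end on the dashed line have 496 reads, and the 3 red bars have 21. Not drawn are 5 circRNAs outside the mixed sample that overlapped psbJ but were listed as intergenic, 1 of them on the gene's strand.

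Around psbK the direction was the other one. psbK (Pt:7017-7202, plus strand), which encodes another small photosystem II subunit, had 6 circRNAs with 74 reads, and 4 of them, including the most-read, were on the opposite strand. FC0103 (Pt:7147-7361) had 50 reads, FC5000 had 7 and FC5399 had 4. These 3 circRNAs of 142 to 224 bp shared their 3′ end at Pt:7147, inside psbK, with 5′ ends spread over 82 bp, and had 61 reads together. FC5840, also on the opposite strand, held the whole gene and had 2 reads. On the strand of psbK, FC4971 had 8 reads and FC5521 had 3. The pattern of a common 3′ end with several 5′ ends thus occurred at psbK on the strand opposite to the gene and at psbJ on the gene's own strand.

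The other 4 genes of this class had 1 circRNA each. FC0106 of psaJ (Pt:66921-67482, 562 bp) had 16 reads and held the whole gene. FC5002 of psbZ had 7 reads and was on the opposite strand. FC5114 of psbI had 6 reads and held the whole gene within 162 bp. FC5423 of psbH had 4 reads and was on the opposite strand.

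The cytochrome b6f genes, whose products carry electrons between the photosystems, had 21 circRNAs with 105 reads from 5 of 6 annotated genes. Of these, 8 were on the gene's strand and 13 on the opposite strand. Reads ranged from 2 to 15 with a median of 4. This was the class with the most circRNAs outside the mixed sample, 12 of 21.

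petD, which encodes subunit IV of the complex, had 11 circRNAs with 57 reads, 5 on its strand and 6 on the opposite strand. FC0110 lay in the intron and had 15 reads. FC4743 had 13 reads, FC5208 had 5, and the other 8 had 2 to 4. Near the 3′ end of the gene, 9 circRNAs with 39 reads fell within 411 bp, Pt:77251-77661. Of these 9, 4 were listed on the strand of petD and 5 on the opposite strand, so overlapping circles were listed on both strands of this stretch. The last, FC5541, ran for 55590 bp and had 3 reads.

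petB, which encodes cytochrome b6, had 6 circRNAs with 27 reads, all 6 on the opposite strand. Of 2 more that overlapped petB but were listed as intergenic, 1 was on the gene's strand, with 4 reads. FC4736 had 8 reads, FC0109 and FC5207 had 5 each, FC4739 had 4, FC4737 had 3 and FC4738 had 2. Of the 6, 3 lay in the intron, and FC4736 and FC0109 shared the 3′ end at Pt:75336. petB and petD are neighbours on the same strand, and psbH lies before them. petA, the gene of cytochrome f, had 1 circRNA with 12 reads on its strand. petN had 2 circRNAs with 3 reads each, 1 on either strand, and petG had 1 with 3 reads.

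**Figure D3:**
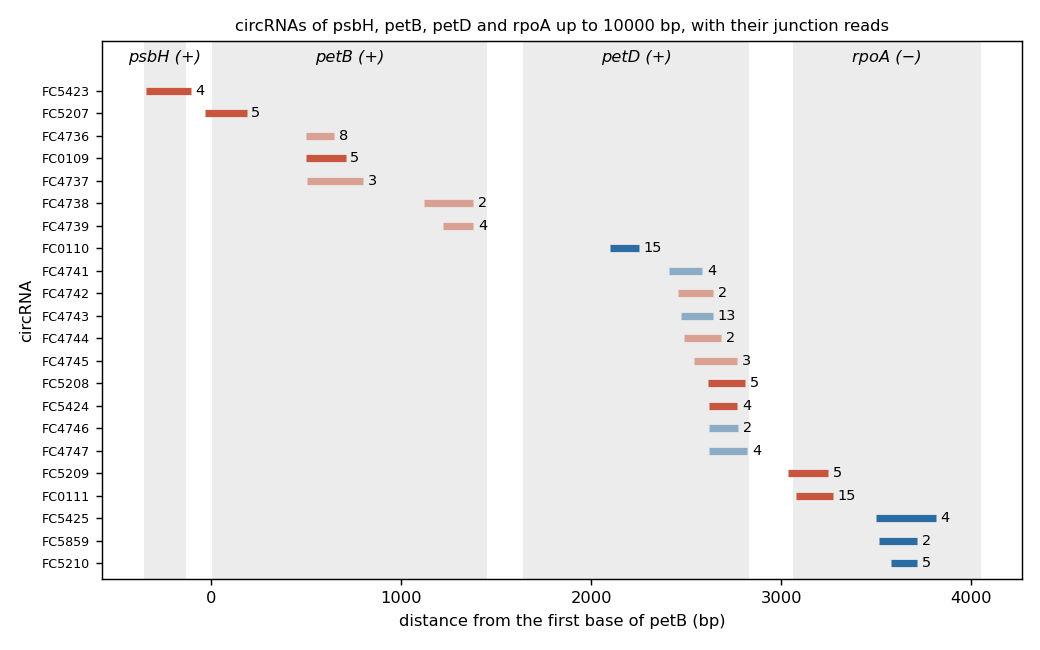
The 22 circRNAs of psbH, petB, petD and rpoA up to 10000 bp as bars, by distance in bp from the first base of petB, with the junction reads beside each bar; grey areas are the genes with their strand, blue is the gene's strand, red the opposite strand, and pale bars lie outside the mixed sample. All bars of petB are red, those of petD are mixed, and those of rpoA are red near petD and blue further on.

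Ribosomal protein genes had 17 circRNAs with 104 reads from 8 of 24 annotated genes, 12 on the gene's strand and 5 on the opposite one. rps14, the gene of a protein of the small ribosomal subunit, had 6 of the 17 circRNAs and 37 reads, and all 6 were on its strand. Of 5 more that overlapped rps14 but were listed as intergenic outside the mixed sample, 1 was on its strand and 4 were on the opposite strand. FC4812 had 17 reads, FC5003 had 7, FC5406 and FC5407 had 4 each, FC5531 had 3 and FC4652 had 2. Of these, 4 circRNAs of 134 to 158 bp with 28 reads shared the 3′ end at Pt:37069, and their 5′ ends were spread over 24 bp only. rps14 lies at Pt:36938-37240 on the minus strand, so this common end lies inside the gene, whereas that of psbJ lies past it.

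rpl22, the gene of a protein of the large subunit, had 1 circRNA with 11 reads on the opposite strand. rps3 had 2 circRNAs on its strand with 3 and 2 reads, and rps18 had 2 with 5 and 2 reads, on opposite strands. rps2 had FC5524, which held the whole gene within 882 bp and had 3 reads, and rpl36 had FC0112 with 4 reads.

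Genes of RNA polymerase, the enzyme of bacterial type that the chloroplast genome encodes, had circRNAs at 4 of 4 genes, 8 in all with 45 reads. rpoA had 5 of the 8. FC0111 had 15 reads and FC5209 had 5, and both were on the opposite strand. They lay at the end of rpoA nearest to petD. FC5210 with 5 reads, FC5425 with 4 and FC5859 with 2 were on the gene's strand. rpoB had 1 circRNA with 9 reads, rpoC1 had 1 with 3 and rpoC2 had 1 with 2 reads.

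ATP synthase genes had 6 circRNAs with 24 reads from 4 of 6 annotated genes, 4 of them on the opposite strand. atpF, the subunit gene with an intron, had 3 with 8, 4 and 2 reads. atpA had FC5196 with 5 reads, a span of 19628 bp with its other end in trnD. atpH had 1 circRNA with 3 reads and atpE had 1 with 2.

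NDH complex genes, whose products return electrons to the photosynthetic chain, had 5 circRNAs with 19 reads from 4 of 12 annotated genes. FC4755 of ndhD, with 7 reads, was on the gene's strand, and the other 4 were on the opposite strand. ndhA had 2 circRNAs in its intron with 4 and 2 reads. FC5427 of ndhA, 117 bp long, was the shortest of the 106. ndhG and ndhJ had 1 each with 4 and 2 reads.

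The 8 circRNAs of other genes had 30 reads. clpP, which encodes a protease subunit, had FC4864 with 12 reads, a span of 4702 bp that ended in petB, and FC5856 with 2 reads. cemA, an envelope membrane protein, had 2 with 4 and 2 reads. ycf4 had 1 with 4 reads, and ycf1, ycf3 and matK had 1 each with 2 reads.

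tRNA genes had 16 circRNAs with 89 reads from 8 of 37 annotated genes. The 5 that lay in tRNA introns were all on the gene's strand. These were 2 of trnG (ATCG00100) with 12 and 4 reads, 2 of trnK with 4 and 3 reads, and 1 of trnV with 7. Of the 11 others, 10 were on the opposite strand. The exception was FC5841 of trnG (ATCG00100), with 2 reads, which overlapped the gene by only 4 of its 353 bp. FC5522 of the same gene had 3 reads on the opposite strand. Outside the mixed sample, 14 more with 75 reads overlapped tRNA genes but were listed as intergenic, 8 of them on the gene's strand. trnP had FC4813 with 17 reads and FC5537 with 3, which shared the 3′ end at Pt:66512 inside the tRNA. These circles of 168 and 177 bp overlapped trnP by 23 bp each, so most of their sequence lay beside it. trnR had 3 circRNAs with 7, 6 and 2 reads, all on the opposite strand. FC4973 of trnV had 8 reads and ran for 2026 bp into atpB. The other trnG (ATCG00310), trnfM and trnS had 1 each with 4, 5 and 2 reads, and all 3 spanned more than 10000 bp.

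rRNA genes were the parent gene of 0 of 106 circRNAs, which allows a share of up to 2.83% (3 counts). The RNA was depleted of ribosomal RNA and the inverted repeat carries these genes. The limit therefore does not measure how often rRNA genes form circRNAs. The reference annotated 7 rRNA genes on the chloroplast. They did hold an end of some long circRNAs.

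By strand, 55 of 106 circRNAs (51.9%, Wilson 95% interval 42.5–61.2%) were listed on the strand of their parent gene. By reads the share was 68.1%, and without psbJ it was 43.8%. The share was 40.9% (35.7–46.3%) for the 330 circRNAs of psbA and 69.0% (59.99–76.8%) for the 113 circRNAs of the other left-out genes. By the listed parent gene, of the 19 genes with at least 2 circRNAs, 11 had circRNAs on both strands, 4 only on the gene's strand and 4 only on the opposite strand. Several circRNAs came from 1 gene and overlapped, so they are not independent. The listed strand is the one on which AG and GT are read. Whether reads also set it is not given, so these shares describe the listing.

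**Figure D4:**
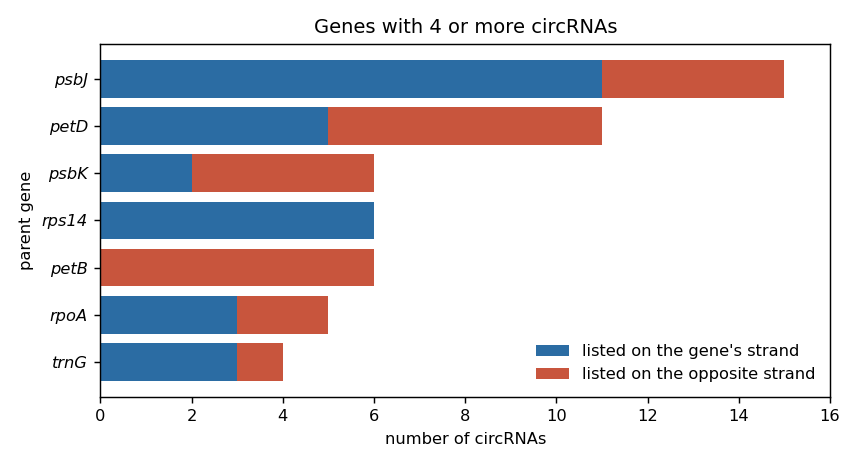
Number of circRNAs of the 7 genes with at least 4, blue for the gene's strand and red for the opposite strand. psbJ has 15 and petD has 11; all 6 of rps14 are blue and all 6 of petB are red, but overlapping circRNAs listed as intergenic, which are not drawn, fell on the other strand in 4 of 5 for rps14 and 1 of 2 for petB.

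By length, the span from end to end was 117 to 98324 bp with a median of 182.5 bp (95% interval of the median 170–209 bp). Up to 400 bp were 88 circRNAs with 966 reads. The median was 291.5 bp for psbA, 201 bp for the other left-out genes and 1057 bp for chloroplast circRNAs listed as intergenic. In introns, 13 circRNAs of 117 to 1073 bp were listed, from 8 genes, and 13 of 13 lay inside an intron of the reference. An end of the circle fell on an end of the intron in 1 of 13, FC4756 of ndhA, which had 2 reads and was on the opposite strand. Of the 13, 7 were on the gene's strand and 6 on the opposite strand. Of the 96 circRNAs up to 10000 bp, 9 held their whole parent gene, among them 3 of psbJ.

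Of the 106 circRNAs, 10 spanned more than 10000 bp, and they had 78 reads, with 2 to 34 each. All 10 were in the mixed sample, and 9 of them had 1 end in the inverted repeat. Outside the mixed sample, chloroplast parent genes were listed only for circles wholly inside them (362 of 362). There, 149 of 693 other chloroplast circRNAs (21.5%) spanned more than 10000 bp, and these were listed as intergenic. FC4783, listed with psbJ, had 34 reads and spanned 70505 bp between Pt:63026 and Pt:133530 on the plus strand. Its junction was atttagccttgcaagTCTTCGACACAAGAA, with the last 15 bases in lower case coming from the gene of 23S rRNA. FC5197 of trnfM, 96776 bp long with 5 reads, ended on the same base. In all, 6 of the 10 had an end in the gene of 23S rRNA, 3 on its strand and 3 on the other. The longest were FC5405 of trnG with 98324 bp and FC5197. The copies of the repeat are identical and run in opposite directions, so reads alone do not tell in which copy such an end lies.

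**Figure D5:**
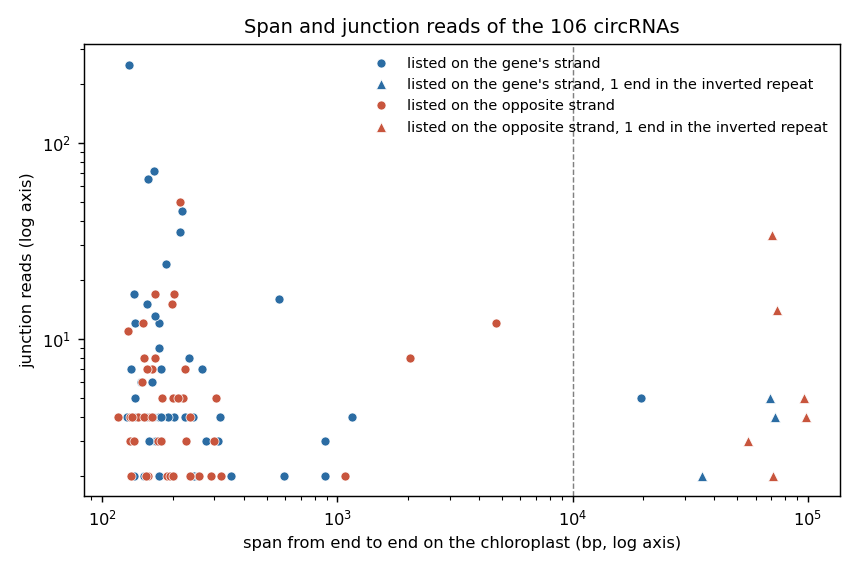
Span in bp and junction reads of the 106 circRNAs (both axes log), blue on the gene's strand and red on the opposite strand; triangles have 1 end in the inverted repeat and the dashed line is 10000 bp. The circRNAs fall into many short ones and 10 beyond the line, where the highest has 34 reads.

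The inverted repeat was located at Pt:84171-110434 and Pt:128215-154478, 26264 bp each, or 34.0% of the chloroplast sequence. With both ends inside 1 copy there were 0 of 106 circRNAs, which allows a share of up to 2.83% (3 counts), and also 0 of the 803 other chloroplast circRNAs. Of the 121 annotated genes that were not left out by the rule, 31 lie wholly in the repeat and 0 of these 31 was a parent gene. Reads from the identical copies cannot be told apart, so these counts of 0 do not measure how many circles lie within the repeat. The limit covers counting error only. With 1 end inside there were 9 of 106 (8.49%, 4.53–15.4%), against 4 of the 803 others (0.498%, 0.194–1.27%). All of these were in the mixed sample, where the shares were 9 of 85 (10.6%, 5.67–18.9%) and 4 of 110 (3.64%, 1.42–8.98%), with intervals that overlap. How the aligner treated reads that match both copies was not tested.

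Some junctions joined ends that share letters, so that the exact point of the join cannot be placed within the shared run. A run of at least 4 bases was shared in 23 of 106 (21.7%, 14.9–30.5%), against 59 of 803 other chloroplast circRNAs (7.35%, 5.74–9.36%). The share was 14.2% (8.91–21.8%) for the left-out genes other than psbA. In the mixed sample alone it was 16 of 85 (18.8%, 11.9–28.4%), against 11 of 110 other chloroplast circRNAs (interval 5.68–17.0%). In each of these 2 comparisons the intervals overlap. The cytochrome b6f genes had 8 of the 23. At least 8 bases were shared in 4. The longest, 11 bases, was in FC5536 of petG, and the most-read circRNA among them was FC0103 of psbK. In the lines below the shared run is in capitals with 8 bases on either side, first around the 5′ end and then around the 3′ end of the circle, on the listed strand:
FC5536 of petG, Pt:66032-66165, 5′ end: atcgtcttAGGTCTAATTCctattact
FC5536 of petG, 3′ end: tatgcgggAGGTCTAATTCagactgct
FC0103 of psbK, Pt:7147-7361, 5′ end: catttaggGAAAAGAGGataaaatt
FC0103 of psbK, 3′ end: agaagaaaGAAAAGAGGtattacgg
FC4875 of rpl22, Pt:83824-83952, 5′ end: agttctaaTATCATAAGtgcttctt
FC4875 of rpl22, 3′ end: ctcttcttTATCATAAGgtttacct

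The run of petG contains AG followed by GT, the letters that the caller needs on both sides of a join. FC0112 of rpl36 also shared 9 bases and had 4 reads. For psbJ the shared runs were short: FC4758 and FC4763 shared 3 bases and FC4767 shared 1.

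Several circRNAs shared an end. A 3′ end was shared at 11 positions by 31 circRNAs with 707 reads, and by up to 8 of them at 1 position. That position, Pt:63455 beside psbJ, held 500 of the 707 reads. A 5′ end was shared at 8 positions by 16 circRNAs with 73 reads, by 2 at each. In all, 43 of the 106 circRNAs shared an end with another. Shared ends were not counted among the other chloroplast circRNAs.

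The mixed sample held 85 of the 106 circRNAs (80.2%, 71.6–86.7%) with 994 reads. It held 110 of the 803 other chloroplast circRNAs (13.7%, 11.5–16.3%), and 44 of the 330 of psbA. Of the 113 circRNAs of the other left-out genes it held 58 (51.3%, 42.2–60.3%). The 21 circRNAs outside it had 99 reads and came from 11 genes, and 11 of them from petB and petD. Instrument, read length, depth of sequencing and the plants sampled differ between the mixed and the separate samples, and their effects cannot be told apart here. The mixed sample pooled 7 growth stages, while the separate samples included single organs and stressed plants. Nor were the parent genes listed in the same way for both sets. Outside the mixed sample 362 of 362 chloroplast circRNAs with a parent gene lay wholly inside that gene, and 341 of 352 listed as intergenic overlapped an annotated gene. In the mixed sample 74 of 187 with a parent gene lay wholly inside it, and 0 of 8 listed as intergenic overlapped a gene. Counting only circRNAs wholly inside their gene, the mixed sample held 32 of 53 (60.4%, 46.9–72.4%), against 42 of 383 of the left-out genes (10.97%, 8.22–14.5%). Of these 383, 310 were of psbA and 73 of the other left-out genes, so the pooled share mostly describes psbA.

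A further 47 circRNAs up to 10000 bp with 237 reads, all outside the mixed sample, were listed as intergenic although they overlapped a chloroplast gene, most of all 1 that the rule does not leave out. They are not among the 106. By gene, trnK had 7 of them, and petD, psbJ and rps14 had 5 each. The 5 of psbJ had 28 reads, 16 of them from FC4708 on the opposite strand, and 4 of the 5 were on that strand. With these 47 included, the mixed sample held 85 of 153 (55.6%, 47.6–63.2%).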

How the data were processed

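RNA of 14 samples of A. thaliana, 1 library each, was depleted of ribosomal and linear RNA and sequenced with strand-specific libraries. The authors filtered the reads, aligned them to TAIR10 with TopHat2 and Bowtie2 (2.0.5), and called back-spliced junctions with at least 2 reads using find_circ. The authors deposited raw junction read counts for the mixed sample. They also deposited, over all samples, a whole-number score for each circRNA under a header that calls it the mean of the read counts. For 1217 of 1217 circRNAs in the mixed sample this score was its count. A depth-scaled column was not used.

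The start was taken as 0-based and 1 was added. Of the 45 gene identifiers, 32 were paired with the reference annotation (RefSeq, TAIR10.1) by gene number, 9 by symbol and overlap, and 4 by overlap. The reference chloroplast is 154478 bp long, and the AG and GT letters fitted 909 of 909 junctions. Junctions were searched with blastn (2.17.0), 60 bases without gaps. Shares have Wilson 95% intervals and medians an order-statistic interval. No test was made. Python 3.11.15, numpy 2.4.6, pandas 2.3.3, scipy 1.17.1 and matplotlib 3.10.9 were used, and the calculations were tested on simulated data.

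The gene classes, the members and the alternatives were chosen with earlier results of these data known. Named were genes with at least 3 circRNAs, the gene with most circRNAs and reads of each class, every tRNA gene, the most-read, longest and shortest circRNAs, and further single genes for completeness, except some items that are not reported here. Alternatives changed the minimum number of reads, the library, the length, the weighting and the definitions.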

Additional observations from a re-analysis of the deposited data

How the results depend on the processing

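Of 104 values recomputed under alternatives, 74 kept within the interval of the value reported or within 1.5 times of a count, and 30 did not. No paired analysis was possible because every condition had 1 library and no test was made. With at least 5 reads, 45 circRNAs remained, small photosystem subunits made up 37.8% and other genes 2.22%. With at least 3 reads other genes made up 3.61%. Outside the mixed sample there were 21 circRNAs with 99 reads, cytochrome b6f made up 57.1%, small photosystem subunits 0% and tRNA genes 0%, while 12 and 14 circRNAs that overlapped these 2 classes were listed there as intergenic. In the mixed sample cytochrome b6f made up 10.6%. Weighted by reads, the classes made up 61.9% (small photosystem), 9.61% (cytochrome b6f), 9.52% (ribosomal protein), 8.14% (tRNA), 2.74% (other), 2.20% (ATP synthase) and 1.74% (NDH complex), and 68.1% of reads were on the gene's strand. Any base in the inverted repeat gave 8.49%. Runs of at least 8 bases were shared in 3.77% and of at least 12 in 0%. The following were chosen after seeing the data. Without psbJ 523 reads remained and small photosystem subunits made up 10.99%. Only circRNAs wholly inside their gene gave 53 circRNAs with 271 reads, 60.4% in the mixed sample. Adding overlapping circRNAs listed as intergenic gave 55.6% in the mixed sample. Wholly inside the gene were 37.6% in the mixed sample and 100% outside it, and runs of at least 4 bases were shared in 33.3% outside it. The cause of these differences was not tested. The median span stayed between 176 and 199 bp, and the share on the gene's strand, counted by circRNAs, between 47.6% and 53.1%. A low number of reads limits each value, since 23 circRNAs had 2 reads.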
